A study of Mus musculus with 7 samples.

Results

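The genes described here belong to bone morphogenetic protein (BMP) signalling in the tail end of the mouse embryo. They are the 3 ligand genes Bmp2, Bmp4 and Bmp7 and 7 genes known to respond to BMP signals, namely Id1, Id2, Id3, Smad6, Smad7, Msx1 and Msx2. They were selected as a list of gene names, with no threshold on their values. All 10 were present among the 25965 rows of the expression table. RNA was sequenced from 4 libraries of Smchd1 null embryos, homozygous for the MommeD1 allele, and from 3 libraries of wild-type embryos, Smchd1 +/+. All embryos were FVB/N females at E9.5. The submitters' design statement counts only 3 null samples, but 4 are labelled and all 4 were used. The tissue was the posterior piece cut roughly 1 somite length behind the last visible somite, named postsomitic mesoderm in the labels but presomitic in the title of the series. MommeD1 is a germline allele, so every cell of the null embryos carried it. The labels do not say whether each library came from 1 embryo, so p-values reflect only how these libraries vary, which may be technical.

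BMPs are secreted dimers that bind pairs of type I and type II serine/threonine kinase receptors. The receptors phosphorylate SMAD1, SMAD5 and SMAD9, which join SMAD4 and act on target genes in the nucleus, while secreted proteins such as noggin and chordin bind the ligands and keep them from the receptors. In the tail of the embryo BMP signals are known for their part in ventral and lateral mesoderm, the ventral ectodermal ridge and the hindgut, and noggin and chordin from the notochord counter them near the midline.

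Libraries held 22137823 to 23847381 reads in listed genes in null tissue and 19622596 to 23548995 in wild-type tissue, and are lettered within each group. Values are given as centred RPM, that is, RPM rescaled so that each library has the same median over autosomal genes, because the deposited values carried a median log2 change of 0.16 over all 13997 genes tested. Smchd1 was lower in null tissue, at 31.4 ± 2.63 RPM (SD, n = 4) against 99.6 ± 4.39 RPM in wild-type tissue (SD, n = 3), a log2 change of -1.67 (SE 0.07, limma adjusted p = 9.54e-05). All 9 markers of tailbud and presomitic mesoderm had reads in every library, and their sum was 297 to 359 RPM in null libraries, against 308, 239 and 336 RPM in wild-type libraries A to C. Wild-type library B differed from the others in several of these markers, in both directions. Its lowest against the rest were Cyp26a1, a retinoic acid-degrading enzyme of the tailbud (37.2 to 44.5 RPM in null libraries, against 29.7, 3.50 and 42.4 RPM in wild-type A to C), and Wnt3a, while Dll1, a Notch ligand gene, was highest there (64.5 to 76.7 RPM in null libraries, against 77.7, 107 and 65.9 RPM in wild-type A to C) and Tbx6 was level over the wild-type libraries (39.0, 39.1 and 39.2 RPM). The sum of 5 somite markers was 19.8 to 60.1 RPM in null libraries, against 40.6, 90.0 and 23.5 RPM in wild-type libraries A to C. Shh is counted in both of the next lists, and T, 1 of the 9 tailbud markers, is also in the notochord list. T alone was at 70.9 to 96.0 RPM in null and 36.0 to 75.9 RPM in wild-type libraries, most of the notochord sum. The summed level of 6 hindgut markers was 73.7 to 89.5 RPM in null and 43.1 to 70.5 RPM in wild-type libraries, and that of 5 notochord markers was 98.2 to 132 RPM in null and 52.6 to 97.1 RPM in wild-type libraries. No marker of these lists passed the test.

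Promoter sequences were available from RefSeq (GRCm38.p6) for 6 of the 10 genes. 4 are shown: those of Bmp4, Msx1 and Msx2, whose levels moved together across the libraries, and that of Id2, the only one with the palindrome GGCGCC. Each runs from 250 bases before to 50 bases after the annotated start, 5′ to 3′ on the gene's strand. Capitals mark GGCGCC, or GGCTCC on either strand (GGAGCC), short GC-rich motifs known to be bound by BMP-activated SMADs.
Bmp4, chr14:46390620-46390919, minus strand: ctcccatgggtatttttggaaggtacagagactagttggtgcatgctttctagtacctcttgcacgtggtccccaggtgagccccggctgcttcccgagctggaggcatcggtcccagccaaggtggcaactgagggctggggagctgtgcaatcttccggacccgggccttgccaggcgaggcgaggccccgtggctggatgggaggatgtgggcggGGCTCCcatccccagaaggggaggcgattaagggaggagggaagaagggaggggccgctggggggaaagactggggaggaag
Msx1, chr5:37824536-37824835, minus strand: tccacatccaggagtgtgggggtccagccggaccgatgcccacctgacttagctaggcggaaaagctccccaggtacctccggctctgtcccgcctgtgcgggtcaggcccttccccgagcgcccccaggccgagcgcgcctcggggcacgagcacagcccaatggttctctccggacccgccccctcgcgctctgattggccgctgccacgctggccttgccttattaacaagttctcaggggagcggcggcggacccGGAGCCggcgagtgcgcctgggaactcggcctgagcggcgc
Msx2, chr13:53472731-53473030, minus strand: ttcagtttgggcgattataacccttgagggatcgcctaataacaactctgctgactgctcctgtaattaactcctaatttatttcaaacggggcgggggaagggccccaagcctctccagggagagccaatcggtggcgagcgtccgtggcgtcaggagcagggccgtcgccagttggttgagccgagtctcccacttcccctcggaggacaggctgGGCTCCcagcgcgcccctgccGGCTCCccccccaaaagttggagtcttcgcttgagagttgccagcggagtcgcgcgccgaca
Id2, chr12:25096043-25096342, minus strand: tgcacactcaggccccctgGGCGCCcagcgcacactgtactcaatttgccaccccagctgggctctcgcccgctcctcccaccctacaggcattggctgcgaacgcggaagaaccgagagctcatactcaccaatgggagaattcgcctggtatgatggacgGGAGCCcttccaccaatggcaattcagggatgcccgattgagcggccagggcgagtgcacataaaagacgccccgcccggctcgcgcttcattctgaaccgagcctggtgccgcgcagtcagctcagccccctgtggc

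GGCTCC or its reverse complement occurred in the window of all 6 genes, Bmp4, Id2, Id3, Msx1, Msx2 and Smad6, and in 30.8% of 32817 promoter windows of the same length. Counted along the gene's strand, its first base lay 32 bases upstream of the annotated start in Bmp4, 33 and 12 bases upstream in Msx2 and 88 bases upstream in Id2, and in Msx1 it lay after the start. GGCGCC occurred in 1 of the 6, in Id2 at 231 bases upstream, and in 11.9% of all windows. CAGAC or its reverse complement GTCTG, a form of the SMAD box, occurred in 1 of the 6, in Id3 at 167 and 68 bases upstream, and in 49.6% of all windows. Other forms, such as GTCTAGAC in the Smad6 window, were not searched. The 6 windows held 60.0% to 70.0% G and C, against a median of 52.7% over all windows. The motifs do not overlap one another in these 6 windows. A match describes these letters and does not show binding.

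The 10 genes differed in level by several fold within the tissue. Per kilobase of merged exon, over all 7 libraries, Id1 was highest at 15.0 ± 1.66 RPM per kb (SD, n = 7), followed by Bmp4 at 12.05 ± 1.82, Id3 at 10.8 ± 0.889, Msx1 at 9.28 ± 1.47 and Id2 at 8.59 ± 0.954 RPM per kb. Smad6 followed at 6.42 ± 1.30, Bmp7 at 4.90 ± 0.927, Msx2 at 4.53 ± 0.832, Smad7 at 3.07 ± 0.531 and Bmp2 at 2.00 ± 0.255 RPM per kb. Bmp4 was thus the most abundant of the 3 ligand transcripts and Bmp2 the least. Neighbours in this order had overlapping ranges throughout. Id1 exceeded Bmp4, Id3 exceeded Msx1, Id2 exceeded Smad6 and Smad7 exceeded Bmp2 in all 7 libraries, whereas Bmp7 exceeded Msx2 in only 2 libraries, although its mean was higher. The gaps between Bmp4 and Id3, between Msx1 and Id2 and between Bmp7 and Msx2 were smaller than the spread between libraries.

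Loss of Smchd1 was compared with wild-type to ask whether the BMP ligands and their targets respond to it. None of the 10 genes passed the test for a difference, limma with Benjamini-Hochberg adjustment over 13997 genes, where 0.0572% of all genes were called (7 higher, and 1 lower, which was Smchd1). Adjusted p-values of the 10 genes ran from 0.353 to 0.970. At an unadjusted p under 0.05 the count was also 0 of 10, against 14.0% of all genes. Fitting whole reads with voom, or leaving out wild-type library B, also called 0 of 10. In none of the 10 were the libraries of the groups separate, against 12.7% of all genes (6.51% with null above, 6.24% with null below). The log2 change was above 0 in 5 and below 0 in 5, with a median of -0.0044, against -0.03 over all genes tested. In this fit of the centred values of all 7 libraries, all 95% intervals of the fold change lay between 0.686 and 1.67. A change of 1 on the log2 scale in either direction was outside each of these intervals. On the deposited scale, which carries the shift of all genes, all 10 changes were above 0, with a median of 0.19, and 0 passed.

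**Figure D1:**
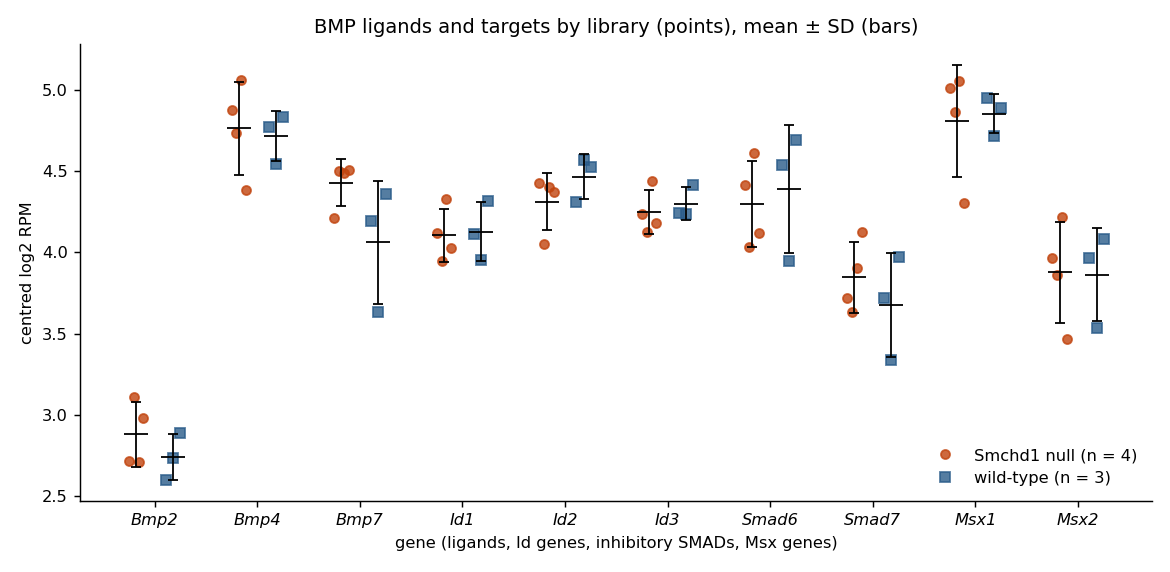
Centred log2 RPM (vertical axis) of the 10 genes (horizontal axis) in each Smchd1 null library (circles, n = 4) and wild-type library (squares, n = 3), with the mean and SD of each group as black bars. The libraries of the groups overlap in every gene, and the lowest Bmp7 value is wild-type library B.

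Among the ligands, Bmp2, a ligand of the ventral ectodermal ridge, was at 6.58, 8.64, 6.54 and 7.91 RPM in null libraries A to D, against 6.08, 6.66 and 7.40 RPM in wild-type libraries A to C. Null libraries B and D were the highest, and null A and C lay within the wild-type range. Its log2 change was 0.14 (SE 0.13, 95% interval -0.16 to 0.44, limma adjusted p = 0.580). The gene, on chromosome 2 from 133552159 to 133562885 in mm10, had 426 to 602 reads in null and 381 to 417 in wild-type libraries.

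Bmp4, a ligand of the ventral and lateral mesoderm, lies on chromosome 14 from 46383520 to 46390669. It was at 29.4, 26.6, 33.4 and 20.9 RPM in null libraries A to D, against 27.3, 23.3 and 28.6 RPM in wild-type libraries A to C. The null libraries held both the highest value, in C, and the lowest, in D, and enclosed the wild-type range. Between the groups Bmp4 had a log2 change of 0.05 (SE 0.15, 95% interval -0.30 to 0.39, adjusted p = 0.881). The row overlaps Gm15222 on the opposite strand by 1764 bases. Gm15222 had 141 to 244 reads in null and 112 to 164 in wild-type libraries, against 1477 to 2174 and 1334 to 1872 of Bmp4, and without the strand setting of the counting these reads cannot be told apart.

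Bmp7, a ligand made in several tissues of the tail including the hindgut and ectoderm, lies on chromosome 2 from 172868012 to 172940321. It was at 18.5, 22.7, 22.5 and 22.8 RPM in null libraries A to D, against 18.3, 12.4 and 20.5 RPM in wild-type libraries A to C. Null libraries B, C and D were above all wild-type libraries, and null library A lay between wild-type A and C. The log2 change of 0.37 (SE 0.16, 95% interval -0.01 to 0.74) was the largest of the 10, at an unadjusted p = 0.0542 and a limma adjusted p = 0.353. Without wild-type library B it was 0.15 (limma adjusted p = 0.710), and over all alternatives the adjusted p ran from 0.145 to 0.710. Wild-type library B also had the lowest sum of the 6 hindgut markers, at 43.1 RPM, and of the 10 ectodermal markers. The ectodermal sum was 173 to 181 RPM in null libraries, against 160, 119 and 200 RPM in wild-type A to C. Singly, Krt8 and Krt18 were lowest in null library D, and the other ectodermal markers in wild-type library B. The sums of tailbud, notochord and endothelial markers were lowest there too, at 239, 52.6 and 104 RPM. The first 2 of these sums share T. The blood sum was 56.0 RPM in wild-type B, close to 56.4 and 57.0 RPM in null D and C. The sums of somite and dorsal neural tube markers were highest in wild-type library B, at 90.0 and 43.6 RPM. Singly, only Meox1 and Tcf15 of the somite list and Sox2 (28.9 RPM) and Olig3 (9.53 RPM) of the neural list were highest there. Pax7, of the neural list, was lowest there. The part of these tissues in the Bmp7 values was not tested. In a piece of whole tissue, fewer cells of a type and less RNA per cell cannot be told apart.

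The Id genes encode helix-loop-helix proteins without a DNA-binding basic region, which hold E proteins away from DNA, and are direct SMAD targets in many cells. They were the steadiest of the set, with a residual SD on the log2 scale of 0.12 for Id3, 0.16 for Id2 and 0.17 for Id1, against a median of 0.12 over all genes tested. Id1, on chromosome 2 from 152736251 to 152737410, was at 17.4, 15.5, 20.1 and 16.3 RPM in null libraries A to D, against 17.3, 15.5 and 19.9 RPM in wild-type libraries A to C. Both groups thus spanned nearly the same range, and the log2 change was -0.02 (SE 0.11, 95% interval -0.28 to 0.24, adjusted p = 0.924). Id3, on chromosome 4 from 136143497 to 136145755, was at 18.9, 17.5, 21.7 and 18.2 RPM in null libraries A to D, against 18.9, 18.9 and 21.3 RPM in wild-type libraries. Null library C was the highest and null library B the lowest, and the log2 change was -0.05 (SE 0.09, 95% interval -0.25 to 0.15, adjusted p = 0.775).

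Id2, on chromosome 12 from 25093801 to 25096092, was at 21.5, 16.6, 21.1 and 20.7 RPM in null libraries A to D, against 19.8, 23.7 and 23.0 RPM in wild-type libraries A to C. Wild-type libraries B and C were the highest, and null library B was the lowest. Id2 had a log2 change of -0.15 (SE 0.11, 95% interval -0.40 to 0.09, adjusted p = 0.460). Id2 was the only member with its highest value in wild-type library B.

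Smad6 and Smad7 encode inhibitory SMADs, which block receptors and receptor SMADs and are themselves induced by the signal, Smad6 mainly by BMPs and Smad7 also by TGF-β. Smad6, on chromosome 9 from 63953076 to 64022059, was at 21.4, 16.4, 24.5 and 17.4 RPM in null libraries A to D, against 23.2, 15.4 and 25.8 RPM in wild-type libraries A to C. Wild-type tissue held both the highest and the lowest value. Smad6 had a log2 change of -0.09 (SE 0.20, adjusted p = 0.811), and its 95% interval of -0.54 to 0.36 was the widest of the 10. Smad7, on chromosome 18 from 75367529 to 75395935, was at 13.2, 12.4, 15.0 and 17.4 RPM in null libraries A to D, against 13.2, 10.1 and 15.7 RPM in wild-type libraries. Its highest value was in null library D and its lowest in wild-type library B, and the log2 change was 0.17 (SE 0.17, 95% interval -0.21 to 0.55, adjusted p = 0.591). Without wild-type library B the log2 change was -0.32 for Smad6 (limma adjusted p = 0.710) and 0.0012 for Smad7 (adjusted p = 0.998).

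Msx1 and Msx2 encode homeodomain repressors that BMP signals induce in dorsal, lateral and appendage tissues. Msx1, on chromosome 5 from 37820485 to 37824583, was at 32.3, 29.1, 33.2 and 19.7 RPM in null libraries A to D, against 30.9, 26.3 and 29.6 RPM in wild-type libraries A to C. Null library D was lower than all other libraries, and null A and C were the highest. The log2 change was -0.04 (SE 0.17, 95% interval -0.43 to 0.35, adjusted p = 0.902). Msx2, on chromosome 13 from 53466881 to 53473074, was at 15.6, 14.6, 18.6 and 11.1 RPM in null libraries A to D, against 15.6, 11.6 and 17.0 RPM in wild-type libraries. Null D and wild-type B were the lowest and null C the highest, and the log2 change was 0.01 (SE 0.19, 95% interval -0.41 to 0.44, adjusted p = 0.970).

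**Figure D2:**
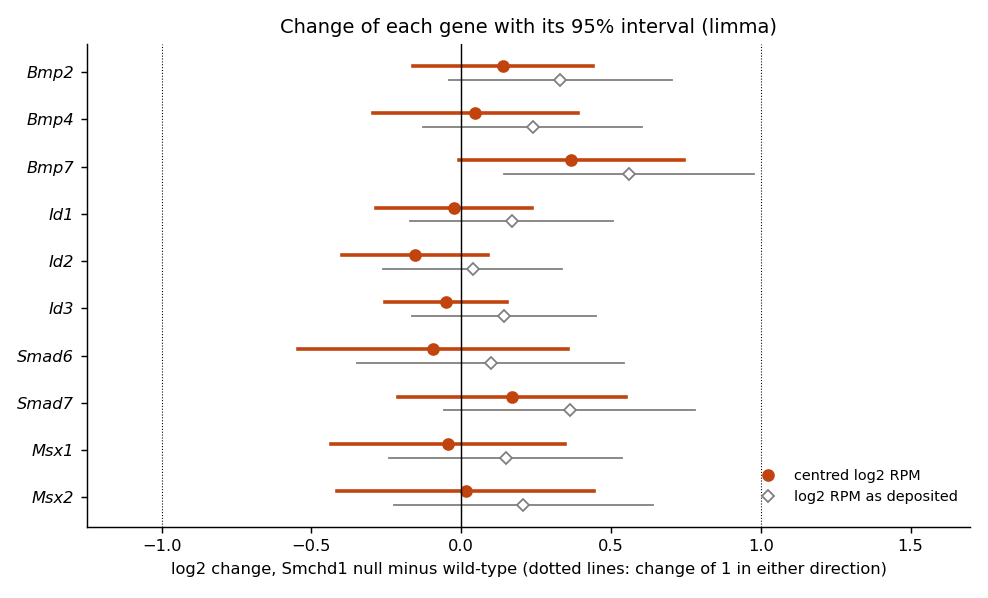
Log2 change, Smchd1 null minus wild-type (horizontal axis), of the 10 genes with 95% intervals from limma, on the centred scale (filled circles) and as deposited (open diamonds). Each interval on the centred scale includes 0, and only that of Bmp7 on the deposited scale does not; all lie inside a change of 1 in either direction.

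In each gene except Bmp7 the log2 change was smaller than the residual SD between libraries of a group. The residual SD of the 10 genes had a median of 0.25 on the log2 scale, against 0.12 over all genes tested, while the size of their log2 change had a median of 0.07, against 0.11 over all genes tested. Msx1, Msx2 and Bmp4 varied in the same way: each had its highest value in null library C and its lowest in null library D, with wild-type library B the second lowest. Reads of Msx1 were 0.944 to 1.10 times those of Bmp4 in null and 1.04 to 1.13 times in wild-type libraries, and reads of Msx2 were 0.529 to 0.557 times those of Bmp4 in null and 0.498 to 0.594 times in wild-type libraries. Both ratios stayed within a 1.20-fold range over the 7 libraries, while Bmp4 itself ranged over 1.60-fold. The ratio of Bmp7 to Bmp4 reads was less steady, at 0.631 to 1.09 in null and 0.532 to 0.717 in wild-type libraries. The summed level of 6 markers of lateral plate, cloaca and allantois was also lowest in null library D, at 95.7 RPM, and highest in null library C, at 253 RPM, with 184 and 133 RPM in null A and B and 221, 130 and 214 RPM in wild-type A to C. Singly, only Pitx1 and Prrx1 had both ends in these libraries. Hand1 and Hand2 were highest in wild-type C, and Tbx4 and Isl1 were lowest in wild-type B. The part of this tissue in the Bmp4 and Msx values was not tested.

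Of the other 12574 genes compared for likeness, by the root mean square difference of log2 values from each gene's own mean over the 7 libraries, Msx2 ranked 5 and Msx1 ranked 11 among those closest to Bmp4 (0.08 and 0.09). The 3 closest were Igf2as, antisense to Igf2 and not told apart from it without strand, 4930404N11Rik and Mfsd12, each at a difference of 0.06. Id1 ranked 176 and Id3 ranked 399, whereas Bmp2 ranked 10183 and Bmp7 ranked 10121, and the member closest to Bmp7 was Smad7 at rank 538. The 3 closest to Bmp7 were Ggta1, a galactosyltransferase gene (0.04), Perp, which encodes a desmosomal protein of epithelia (0.05), and Mtus1 (0.05). All 3 were lowest in wild-type library B, with Perp at 8.11 to 9.92 RPM in null libraries and at 8.56, 5.48 and 8.78 RPM in wild-type A to C. The 3 closest to Bmp2 were Sall3, a spalt-family zinc-finger gene (0.07), Mfsd2a, a lipid transporter gene (0.07), and Slc35f2 (0.08), and the closest member to Bmp2, Id3, ranked 8339. The ranks describe 7 libraries that share depth, composition of the dissected piece and processing.

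**Figure D3:**
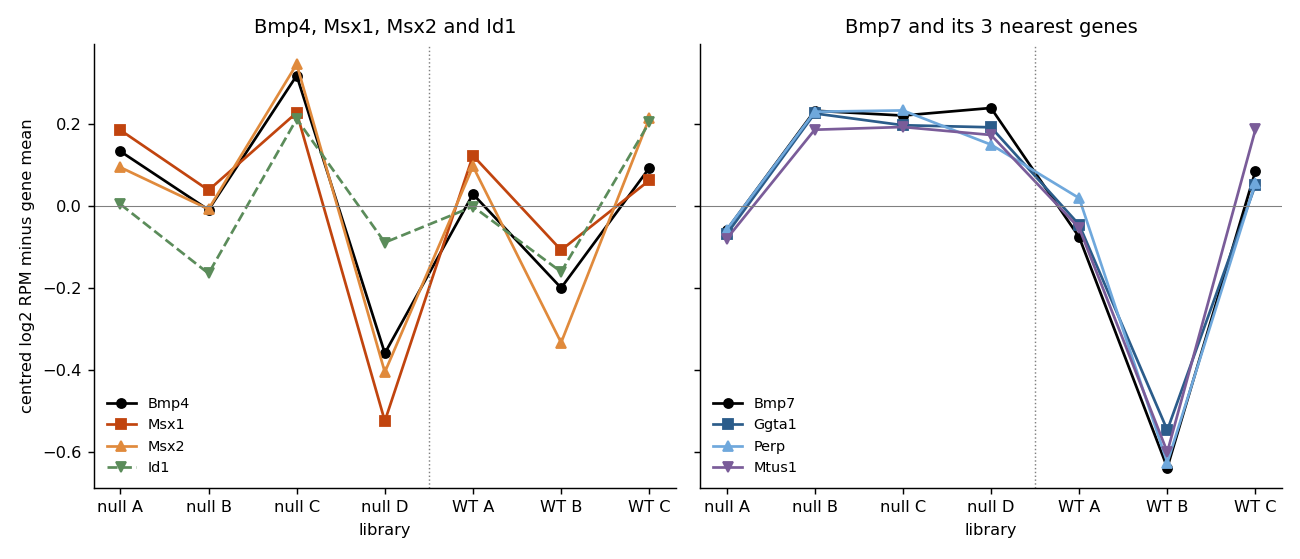
Centred log2 RPM minus each gene's own mean (vertical axis) in the 7 libraries (horizontal axis, null left of the dotted line, WT for wild-type right of it; lines only join the points of a gene). Left, Bmp4, Msx1 and Msx2 are lowest in null library D and highest in null library C, with Id1 shown for comparison. Right, Bmp7 and its 3 closest genes are lowest in wild-type library B.

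The wider BMP pathway was measured through 65 further genes, of which 52 were abundant enough to be tested. None of the 52 passed the test over all genes, against 0.0572% of all genes. At an unadjusted p under 0.05, 6 were higher and 3 lower, against 14.0% of all genes. Without wild-type library B that count of 9 was 3, and without null library B it was 4. Over all genes the count fell as well, from 1959 of 13997 to 969 of 13971 without wild-type B and 927 of 13860 without null B. The 52 genes had a median log2 change of 0.02, against -0.03 over all genes tested.

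Receptors and SMADs were the steadiest roles by their median residual SD, at 0.13 and 0.09 on the log2 scale. Single genes reached 0.45 among receptors (Acvrl1) and 0.73 among SMADs (Smad9). The type I receptor gene Bmpr1a was at 60.7 ± 1.67 RPM in null tissue (SD, n = 4) and 63.0 ± 1.36 RPM in wild-type tissue (SD, n = 3), a log2 change of -0.05 (SE 0.04, limma adjusted p = 0.494). Its 95% interval of -0.15 to 0.04 was narrower than that of any of the 10 genes above. The other abundant receptors, Acvr2b (-0.20), Acvr2a (-0.04) and Acvr1 (0.05), had adjusted p-values of 0.352 to 0.837. Smad5, a signal-transducing SMAD, was at 72.2 ± 1.10 RPM in null tissue (SD, n = 4) and 72.6 ± 3.16 RPM in wild-type tissue (SD, n = 3), with a log2 change of -0.01 (95% interval -0.10 to 0.09). The log2 change was -0.14 for Smad4, the common partner SMAD, -0.11 for Smad1 and 0.09 for Smad9 (95% interval -0.92 to 1.10). The co-receptor genes Eng, Rgma and Rgmb had log2 changes of 0.27, -0.36 and -0.06, and the fourth measured one, Hfe2, did not pass the filter.

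Of 11 further ligand genes 4 passed the filter: Bmp8b (log2 change 0.01), Bmp5 (-0.49), Gdf6 (-0.10) and Bmp6 (0.02), with adjusted p-values of 0.406 to 0.968. Per kilobase all 4 were below Bmp4, with Bmp8b the most abundant at 3.12 ± 0.0727 RPM per kb in null tissue (SD, n = 4) and 3.09 ± 0.181 RPM per kb in wild-type tissue (SD, n = 3). Changes of secreted antagonists and modulators ran from -1.63 for Fst to 1.42 for Bmper on the log2 scale, over the 11 of 15 that passed the filter. Bmper, which encodes a chordin-like BMP-binding protein, was at 8.95 to 15.7 RPM in null libraries, against 9.26, 1.05 and 10.8 RPM in wild-type libraries A to C. Without wild-type library B its log2 change was 0.34, that of Fst was -1.14, and the role ran from -1.14 to 0.71. The 4 most abundant per kilobase were Fstl1 (-0.10), Twsg1 (0.02), Sost (0.22) and Nog (0.54), with adjusted p-values of 0.352 to 0.842. Nog, the noggin gene, was at 4.24, 4.91, 3.26 and 5.67 RPM in null libraries A to D, against 2.34, 3.62 and 3.35 RPM in wild-type libraries A to C. Null library C lay below wild-type B and C, so the groups overlapped.

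Among the 52 genes, 3 had all null libraries above all wild-type libraries, against 6.51% of all genes, and 1 had them all below, against 6.24%, and these 4 are named because of their values. Chrd, the gene of the BMP-binding protein chordin, was at 6.06, 7.33, 6.44 and 8.46 RPM in null libraries A to D, against 3.77, 3.52 and 4.88 RPM in wild-type libraries A to C. Its log2 change was 0.81 (SE 0.16, limma adjusted p = 0.207), and Chrd is also one of the 5 notochord markers summed above. Pcsk6, the gene of a proprotein convertase, had 0.52 (SE 0.12, adjusted p = 0.226). Dlx5, a homeobox gene, had 0.47 (SE 0.18, adjusted p = 0.352). Ski, which encodes a SMAD-binding corepressor, had -0.19 (SE 0.07, adjusted p = 0.352).

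The proteases Bmp1, which cleaves chordin, Furin, Tll2 and Pcsk5 had log2 changes of 0.08, 0.18, 0.39 and -0.15. Among intracellular inhibitors, the ubiquitin ligases Smurf2 and Smurf1 had -0.08 and 0.15, and Bambi, a pseudoreceptor gene, 0.07. Bambi was, as Bmp4, Msx1 and Msx2 were, lowest in null library D (15.9 RPM) and highest in null library C (30.7 RPM). Of 12 other target genes 11 passed the filter, with a median log2 change of 0.37 over changes from -1.24 to 0.81. Without wild-type library B the median was 0.05. The most abundant per kilobase were Hand2 (-0.57), Tbx3 (0.78), Hand1 (-1.24) and Gata3 (0.54), with adjusted p-values of 0.375 to 0.457. Hand1, a factor of lateral and extraembryonic mesoderm, was at 16.6, 4.84, 14.9 and 2.19 RPM in null libraries A to D, against 16.4, 13.9 and 21.3 RPM in wild-type libraries A to C. Null libraries B and D were far below the rest, and null A and C lay among the wild-type libraries. Tbx3, a T-box gene, was at 27.8 to 44.0 RPM in the 4 null libraries, against 28.4, 7.70 and 37.5 RPM in wild-type libraries A to C, and its low value was in wild-type library B. Without that library the log2 change was 0.08 for Tbx3 and 0.14 for Gata3. Without null library D it was -0.67 for Hand1 and -0.27 for Hand2.

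**Figure D4:**
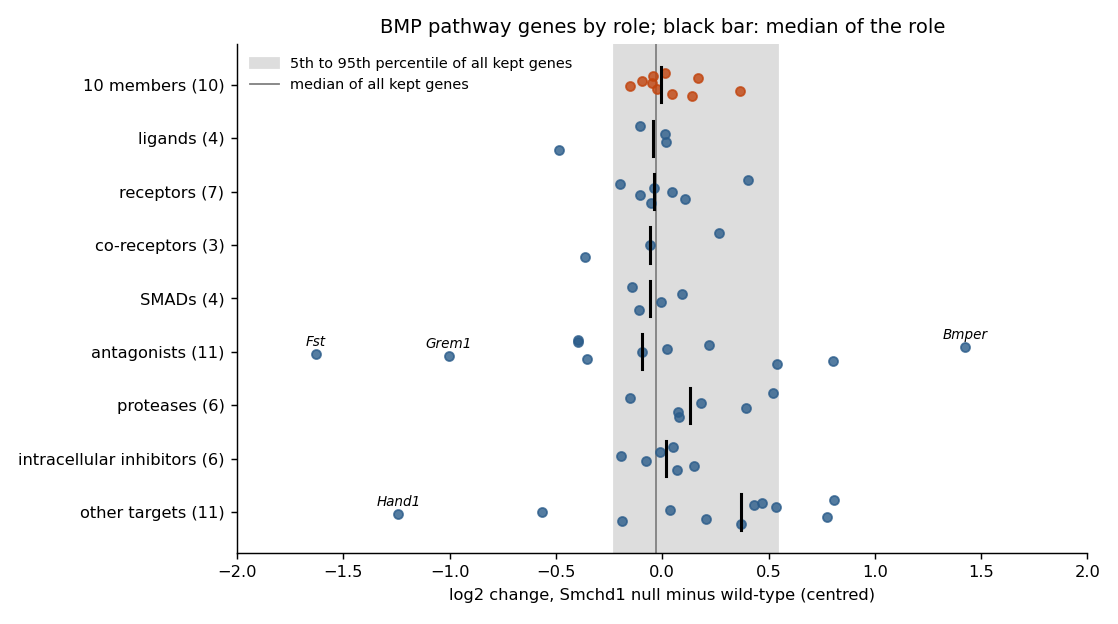
Log2 change, Smchd1 null minus wild-type (horizontal axis), of the 10 genes and of the other BMP pathway genes that passed the filter, by role (vertical axis, number of genes in parentheses). Points are genes, black bars medians, and the grey band the 5th to 95th percentile of all 13997 genes tested, from -0.23 to 0.54. All 10 genes lie inside the band, and Fst, Grem1, Bmper and Hand1 lie farthest outside it.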

How the data were processed

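RNA-seq of 7 libraries was used, 4 of Smchd1 null and 3 of wild-type tissue. The authors deposited log2 RPM values for 25965 rows. The submitters' processing notes name the build mm10 and, among tools, TopHat2 2.0.12, edgeR and bcl2fastq. How reads were counted, and on which strand, is not given in the sources used here. Column names give the genotype and further numbers that the labels do not explain, but no sample number, so libraries are lettered in file order within a group. Every value checked under 1000 reads gave a whole read number to within 0.01, zeros standing in the table as 0.9 read. Listed genes held 34.3% to 37.4% of the reads behind the RPM in null and 28.8% to 37.9% in wild-type libraries. Because of this the log2 values were centred on the median of 13500 kept autosomal genes per library. A count of 0 allows up to 0.0446 to 0.0507 RPM in null and 0.0440 to 0.0483 RPM in wild-type libraries at 3 reads, for counting error only, and all 10 genes had at least 381 reads.

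The filter on low values asked for a log2 RPM over 0 in 3 or more libraries, which 13997 genes met, and all 10 genes passed in all 7 libraries. The null and wild-type libraries were compared by limma 3.58.1 (R 4.3.3), prior trend, two-sided, Benjamini-Hochberg adjustment at 0.05, and the fit was tested on simulated data. Exon lengths are merged GENCODE M21 exons, which can overstate the length of the main transcript. The members and lists were chosen with earlier results of these data known. The text names all 10 genes, in each pathway role up to 4 genes highest per kilobase and any called, and the 3 genes closest to each ligand. Outside this rule, Fst, Grem1, Bmper, Chrd, Pcsk6 and Dlx5 are named for their values, as are the markers named singly. The alternatives were the deposited scale, cyclic loess, quantile normalization, no filter, a mean log2 filter of 1, a pseudocount of 1 RPM, other priors, array weights, a replicate block on the last number of the column names, voom on whole reads, an exact permutation test over 35 splits and leaving out each library. Leaving out both libraries whose column names end in 18, and a block on the 4-digit number of the column names, were chosen after seeing the data. Hfe2 and Hjv are symbols of 1 gene, counted once. Python 3.11.15, numpy 2.4.6, pandas 2.3.3, scipy 1.17.1 and matplotlib 3.10.9 were used.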

Additional observations from a re-analysis of the deposited data

Results flagged for a closer look

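Within the 4 null libraries, 1 library lay apart from the others in 2 of the 10 genes. For Bmp7 it was null library A, at 18.5 RPM, against 22.7, 22.5 and 22.8 RPM in null B, C and D, a gap of 0.938 of the whole range of the group. For Id2 it was null library B, at 16.6 RPM, against 21.5, 21.1 and 20.7 RPM in null A, C and D, a gap of 0.857 of the range. Chance gives a gap past the limit used for flagging in about 1 in 20 groups, and 10 groups were examined. That rate belongs to the limit, not to each of these 2 gaps. The 3 wild-type libraries are too few for this comparison.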

How the results depend on the processing

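None of the 10 genes passed the adjusted threshold under any alternative run, and neither did any of the 52 other pathway genes (65 with no filter). Over 210 gene and setting pairs the change kept its sign in 185, and the smallest adjusted p was 0.145, for Bmp7 with the replicate block. The exact permutation test, the other priors and no filter leave the change itself as it is, so their pairs could not change sign. Of the 52 pathway genes, 9 had an unadjusted p under 0.05, against 5 after cyclic loess or quantile normalization and 14 on the deposited scale. Of all 13997 genes, 1959 had one, against 1480 after cyclic loess, 1460 after quantile normalization and 1964 on the deposited scale. Among the 10 genes, 8 of the 210 pairs had an unadjusted p under 0.05, 7 of them for Bmp7 and 1 for Msx1. The count over all genes, 8, was 19 after cyclic loess, 16 after quantile normalization and 13 with array weights, and 4 to 10 without 1 library (4 without null B, wild-type A or wild-type C, and 5 without null D); the cause was not tested.

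On the deposited scale the log2 change was 0.17 for Id1, 0.039 for Id2, 0.14 for Id3, 0.10 for Smad6 and 0.15 for Msx1, above 0 as the median of all genes is there (0.16). With array weights it was -0.016 for Smad7 and -0.047 for Msx2, and after quantile normalization -0.0089 for Msx2. Without both libraries numbered 18, chosen after seeing the data, it was -0.076 for Bmp4 and -0.18 for Msx2. Without 1 library it ran from -0.051 to 0.17 for Bmp4, from -0.11 to 0.072 for Id1, from -0.11 to 0.0084 for Id3, from -0.32 to 0.056 for Smad6, from -0.13 to 0.12 for Msx1 and from -0.15 to 0.15 for Msx2. The ends of these ranges came without null C or D or wild-type B or C. For Bmp7 it ran from 0.15 without wild-type B to 0.51 without wild-type C, for Smad7 from 0.0012 without wild-type B to 0.32 without wild-type C, for Bmp2 from 0.062 without null B to 0.21 without wild-type C, and for Id2 from -0.23 without wild-type A to -0.067 without null B.

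The last number of the column names was tried as a replicate block. Libraries with the same number had correlated deviations in 3 of 4 pairs (r = 0.36, 0.20 and 0.41) but not in null D with wild-type C (-0.05). With different numbers, r was also above 0 in null B with wild-type C (0.25), null D with wild-type B (0.22) and null C with wild-type C (0.17). In the rest it was below 0, from -0.365 to -0.22. The numbers were therefore not taken to pair the libraries. With the replicate block 8 genes were called, the change of Msx2 was -0.028 and that of Bmp7 0.34 (unadjusted p = 0.0056, where 20.9% of all genes had one under 0.05; limma adjusted p = 0.145). Within a last number, Bmp7 differed by 0.58 (18), 0.15 (21) and 0.30 (22) on the log2 scale, null minus wild-type. A 4-digit number in the column names is shared by null D and wild-type B and C, and another by null B and C, while null A and wild-type A have their own. As a replicate block, chosen after seeing the data, it sets null D against wild-type B and C alone. It then called 0 genes (2143 at an unadjusted p under 0.05), and gave a log2 change of -0.31 for Bmp4, -0.35 for Msx2 and -0.50 for Msx1 (unadjusted p = 0.013, limma adjusted p = 0.320). With 4 and 3 libraries the exact permutation test over 35 splits cannot go below 0.0286, and its smallest value over the 10 genes was 0.0857, for Bmp7. Each of the 10 genes had at least 381 reads in every library.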
